A study of Mus musculus with 8 samples.

Results

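Wnt proteins are secreted, lipid-modified growth factors that bind Frizzled receptors together with the co-receptors LRP5 and LRP6 and thereby stabilise beta-catenin, which enters the nucleus and acts with TCF/LEF factors. Other Wnt proteins act through Frizzled with ROR or RYK receptors on cell shape and polarity. Secreted antagonists bind the ligand or the co-receptors, R-spondins with LGR receptors slow the removal of Frizzled by the ubiquitin ligases ZNRF3 and RNF43, and in the lung the pathway is known for its part in branching and in the upkeep of alveolar epithelium.

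The members described here are 58 genes of the 43346 in the deposited count table, chosen by name: 19 Wnt ligands, 10 Frizzled receptors, 5 co-receptors and alternative receptors, 9 genes of the R-spondin module, 12 secreted antagonists and Kremen genes, Porcn and the 2 Axin genes. Messenger RNA was measured by paired-end sequencing of poly-A RNA in LLC1, the Lewis lung carcinoma line, and MLE12, a mouse lung epithelial line immortalised by SV40 large T antigen driven in the animal of origin by the surfactant protein C promoter. Both lines were untreated and harvested before full confluence, and each gave 4 of the 8 libraries. Each line is a single established culture line obtained from a repository, so differences between them are differences between 2 lines. Whether replicate libraries stem from separate cultures is not labelled, and the p-values cover only the spread between these libraries, which can be technical.

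Totals per library were 46.8 to 55.3 M counts for LLC1 and 48.6 to 76.7 M for MLE12. A library with a count of 0 allows up to 3 counts, for counting error only. Per M of unscaled library total that is 0.0391 at the greatest depth and 0.0640 at the least. CPM here means counts per M of scaled library size, and on that scale 3 counts in LLC1 replicate 1 are 0.0693 CPM. The alveolar markers Nkx2-1, Sftpc and Cdh1 stood at 147, 23.6 and 154 CPM in MLE12, but Sftpd was at 0 in every library and Slc34a2 reached 0.00500 CPM in MLE12. Markers of blood cells summed to 18.3 to 20.6 CPM in LLC1 and 13.8 to 16.6 CPM in MLE12 over 9 genes, of which Cd68 and Csf1r alone passed 1 CPM; Ptprc was at 0 in LLC1 and at 0.00663 CPM in MLE12. Endothelial markers summed to 0.571 to 1.12 CPM in LLC1 and 3.44 to 4.07 CPM in MLE12 over 7 genes. The 11 alveolar markers summed to 533 to 569.6 CPM in LLC1, nearly all from Krt18, Krt8 and Abca3, and 578 to 612 CPM in MLE12. The 10 fibroblast markers summed to 1417 to 1552 CPM in LLC1, mostly Col3a1, and 336 to 374 CPM in MLE12, mostly Dcn. Of the 6 fibroblast markers tested 2 were higher in LLC1 (Col3a1 and Pdgfra) and 4 in MLE12 (Col1a1, Col1a2, Pdgfrb and Dcn). Postn and Thy1 were at 0 in LLC1 and at 0.0133 and 0.0223 CPM in MLE12, and Tcf21 was at 0 in every library. The part of other cells in the results below was not tested, and in bulk RNA fewer cells that carry a transcript and less of it per cell cannot be told apart.

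The comparison sets the Wnt pathway transcripts of LLC1 beside those of MLE12. Each line had 1 dominant ligand, Wnt7b in LLC1 and its close relative Wnt7a in MLE12, and among the member antagonists Dkk2 was highest in LLC1 and Sfrp2 in MLE12. Frizzled receptors were mostly higher in MLE12, as were Ror1 and Rnf43, while Lrp5, Lgr6 and Kremen1 were higher in LLC1. Of the 58 members 41 had enough counts to be tested, and among these 27 were higher in MLE12, 11 higher in LLC1 and 3 passed no call (edgeR quasi-likelihood test, Benjamini-Hochberg adjusted p under 0.05). Among all 18546 genes tested 81.6% were called, 40.7% higher in LLC1 and 40.9% higher in MLE12. Tested against a minimum fold of 2, 25 members were higher in MLE12 and 7 in LLC1, beside 16.9% and 16.7% of all genes tested and 33.7% in both directions together. The median log2 fold change (LLC1 over MLE12, so that negative values are higher in MLE12) was -1.81 over the tested members and 0.02 over all genes tested, and the median size without sign was 3.22 and 0.74. In 36 of the tested members the CPM values of the lines did not overlap, as in 76.3% of all genes tested. These counts are descriptions: 12 of the 41 tested members (29.3%) stood below the filter level of 0.186 CPM in their lower line and were tested because of the other, as did 14.7% of all genes tested.

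**Figure D1:**
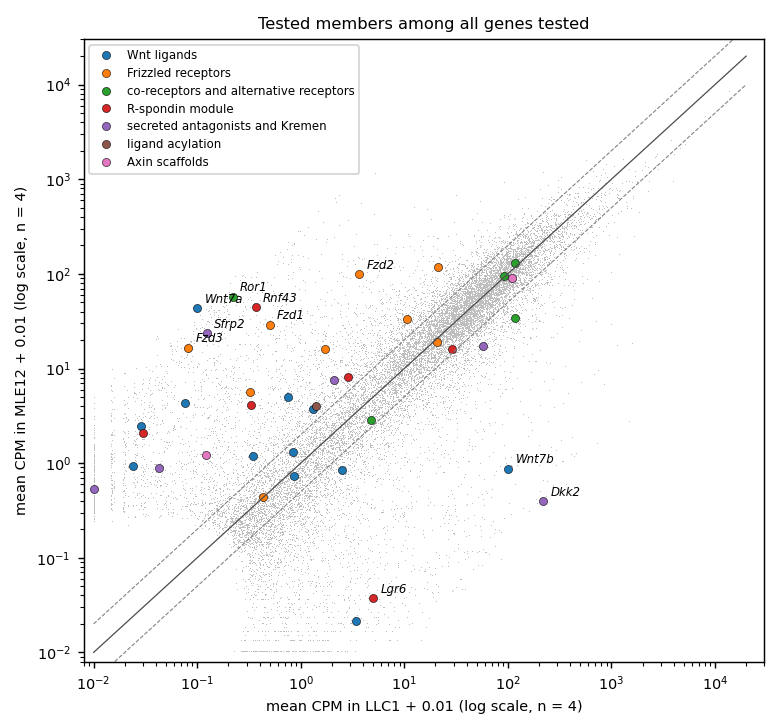
Mean CPM of each gene tested in LLC1 (x axis) and MLE12 (y axis), both on a log scale after adding 0.01, with n = 4 libraries per line. Grey points are all 18546 genes, coloured points the 41 tested members by role, the solid line marks equal levels and the dashed lines a 2-fold difference; Wnt7b and Dkk2 lie far to the LLC1 side and Wnt7a, Ror1, Rnf43 and the Frizzled genes Fzd1, Fzd2 and Fzd3 far to the MLE12 side.

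Promoter sequence was at hand for 36 of the 58 members, from RefSeq on GRCm38.p6, the assembly that mm10 names. The 250 bases before the start are shown for the members with the largest fold changes among these, a pair in each direction. They run 5′ to 3′ on the gene's strand, and CG dinucleotides are in capitals. Dkk2 (chr3:132085042-132085291, plus strand, 7 CG) and Lgr6 (chr1:135105277-135105526, minus strand, 16 CG) were higher in LLC1, and Wnt7a (chr6:91411354-91411603, minus strand, 34 CG) and Ror1 (chr4:100095541-100095790, plus strand, 8 CG) higher in MLE12.
Dkk2: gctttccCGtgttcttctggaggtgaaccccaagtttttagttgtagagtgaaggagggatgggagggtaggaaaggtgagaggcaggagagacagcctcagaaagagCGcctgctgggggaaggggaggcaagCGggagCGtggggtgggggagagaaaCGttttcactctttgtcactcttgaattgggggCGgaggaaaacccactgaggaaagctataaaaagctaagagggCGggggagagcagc
Lgr6: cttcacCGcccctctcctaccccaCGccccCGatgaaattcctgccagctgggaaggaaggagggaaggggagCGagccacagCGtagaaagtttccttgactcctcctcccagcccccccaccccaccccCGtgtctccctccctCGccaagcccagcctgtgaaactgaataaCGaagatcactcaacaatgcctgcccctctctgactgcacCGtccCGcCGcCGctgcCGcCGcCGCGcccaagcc
Wnt7a: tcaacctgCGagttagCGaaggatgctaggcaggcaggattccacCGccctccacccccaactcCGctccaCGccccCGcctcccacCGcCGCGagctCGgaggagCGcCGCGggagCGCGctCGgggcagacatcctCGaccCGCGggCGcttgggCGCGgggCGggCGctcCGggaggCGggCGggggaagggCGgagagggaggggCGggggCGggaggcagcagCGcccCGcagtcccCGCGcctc
Ror1: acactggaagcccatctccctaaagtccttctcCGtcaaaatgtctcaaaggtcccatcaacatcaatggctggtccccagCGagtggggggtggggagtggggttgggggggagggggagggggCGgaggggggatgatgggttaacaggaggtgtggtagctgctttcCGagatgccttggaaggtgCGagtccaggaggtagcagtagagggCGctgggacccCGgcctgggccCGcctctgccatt

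Among these 4 the CG-rich Wnt7a window and the CG-poor Ror1 window belong to the same side of the comparison. The windows of the members, 300 bases long and 40 in number because some genes have several starts, held a median of 25.5 CG against 7 over all 32851 windows of the table. For members higher in LLC1 the median was 32 CG (5 windows) and for members higher in MLE12 it was 25 CG (19 windows). The letters CTTTGAT, a TCF/LEF motif searched on both strands, occurred in 2 of the 40 member windows (5.0%), those of Wnt11 and Wnt5b, and in 3.73% of all windows. The related CTTTGAA, which shares its first 6 letters, occurred in the Dkk1 window alone (2.50%) and in 5.14% of all windows. The window of Axin2, a textbook target of beta-catenin, held neither. These are matches of letters and say nothing on whether a factor binds.

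Among the ligands the lines carried opposite members of the Wnt7 pair. Wnt7b (ENSMUSG00000022382, chromosome 15, 85535439 to 85581821, mm10 as all positions of the deposited table), which signals through beta-catenin in developing lung, stood at 104, 97.5, 104 and 100.0 CPM in the LLC1 libraries and at 1.05, 0.862, 0.901 and 0.660 CPM in MLE12. All LLC1 values lay far above all MLE12 values, with a log2 fold change of 6.84 ± 0.08 (SE; edgeR adjusted p = 1.2e-22). Wnt7a (ENSMUSG00000030093, chromosome 6, 91363981 to 91411363) was the reverse, at 0.0693, 0.112, 0.124 and 0.0571 CPM in LLC1 and 43.4, 46.8, 43.2 and 40.2 CPM in MLE12. Its log2 fold change was -8.86 ± 0.13 (edgeR adjusted p = 2.4e-21), again without overlap. On the TPM scale, which divides counts by the deposited gene length and scales each library to the same sum, so that genes can be compared, Wnt7b made up 89.5% ± 1.09 (SD, n = 4) of the summed ligand level in LLC1 and Wnt7a 65.7% ± 1.10 (SD, n = 4) of that in MLE12. The summed ligand level itself was 53.6 to 59.9 TPM in LLC1 and 49.3 to 58.2 TPM in MLE12. On this scale the libraries of the lines overlapped in the sum while its makeup was exchanged. The overlap depends on the division by length. Without that division Wnt7b, at a mean of 101 CPM, held 90.5% of the LLC1 sum. Wnt7a, at a mean of 43.4 CPM, held 66.8% of the MLE12 sum, so the LLC1 sum was then the higher. An antisense gene, AU022754, overlaps 6.61% of the exon bases of Wnt7b and had 232 counts over the LLC1 libraries; the counting strand is not given in the sources used here.

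The next ligands were much lower in either line. Wnt5a (ENSMUSG00000021994), best known for signalling through ROR receptors, stood at 3.10, 3.91, 2.96 and 3.63 CPM in LLC1. Over the MLE12 libraries it had 3 counts in all, against 677 in LLC1, a ratio of plain levels of 300.0 with an exact 95% counting interval of 102 to 1460. Its fitted log2 fold change was 8.06 ± 0.37 and became 8.90 without MLE12 replicate 1. Wnt2b was also higher in LLC1 (2.47 ± 0.388 CPM against 0.835 ± 0.253, SD, n = 4; log2 fold change 1.58 ± 0.22). Wnt4 (ENSMUSG00000036856, chromosome 4, 137277489 to 137299726), a ligand of kidney and reproductive tract development, stood at 0.855, 0.898, 0.599 and 0.628 CPM in LLC1 and 5.19, 4.75, 4.91 and 5.22 CPM in MLE12 (log2 fold change -2.75 ± 0.16, edgeR adjusted p = 3.9e-12). Every MLE12 library was above every LLC1 library for this gene.

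Further ligands were higher in MLE12 at low levels. Wnt10a reached 4.30 ± 0.614 CPM there against 0.0656 ± 0.0354 CPM in LLC1 (-5.99 ± 0.26), and Wnt9a 3.73 ± 0.190 CPM against 1.31 ± 0.561 CPM (-1.51 ± 0.22). Wnt1, the founding member of the family, stood at 2.43 ± 0.372 CPM in MLE12 and had 0, 2, 0 and 2 counts in the LLC1 libraries (-6.77 ± 0.39). Wnt6 had 259 counts over MLE12 and 3 over LLC1, all of the latter in replicate 4, and the ratio of plain levels was 64.9 with a counting interval of 22.0 to 317. Its fitted log2 fold change of -5.75 ± 0.57 became -8.82 without that library. Wnt11 was also higher in MLE12 (1.17 ± 0.241 against 0.336 ± 0.0842 CPM; -1.81 ± 0.26). Wnt10b was called higher in MLE12 (-0.67 ± 0.25, edgeR adjusted p = 0.0189) although the libraries overlapped, and the call ended without LLC1 replicate 1 (adjusted p = 0.0657), LLC1 replicate 4 (0.0524), MLE12 replicate 1 (0.0505) or MLE12 replicate 3 (0.0719). Wnt5b did not pass the test, with LLC1 at 0.859 ± 0.168 CPM and MLE12 at 0.729 ± 0.144 CPM (log2 fold change 0.26 ± 0.24, adjusted p = 0.330).

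In the neighbouring ligand pairs where both genes could be tested, both were on the MLE12 side, as were 8 of the 11 called ligands. Of all genes tested 40.9% were called higher in MLE12 and 40.7% higher in LLC1. Wnt6 and Wnt10a are 6.19 kb apart on chromosome 1, and Wnt10b and Wnt1 11.7 kb apart on chromosome 15; all 4 were called higher in MLE12, Wnt10b with the limit given above. In the other neighbouring pairs Wnt9a was higher in MLE12 beside Wnt3a at 0 in every library, and Wnt9b and Wnt3 had too few counts to be tested. Outside the ligands, Kremen1 and Znrf3 lie 14.8 kb apart on chromosome 11 and both were higher in LLC1. The ligands without enough counts for a test were Wnt16 (61 counts over LLC1 and 27 over MLE12), Wnt8b (22 and 2), Wnt3 (16 and 1), Wnt2 (4 and 13), Wnt9b (4 and 6), Wnt8a (2 and 1) and Wnt3a (0 and 0).

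**Figure D2:**
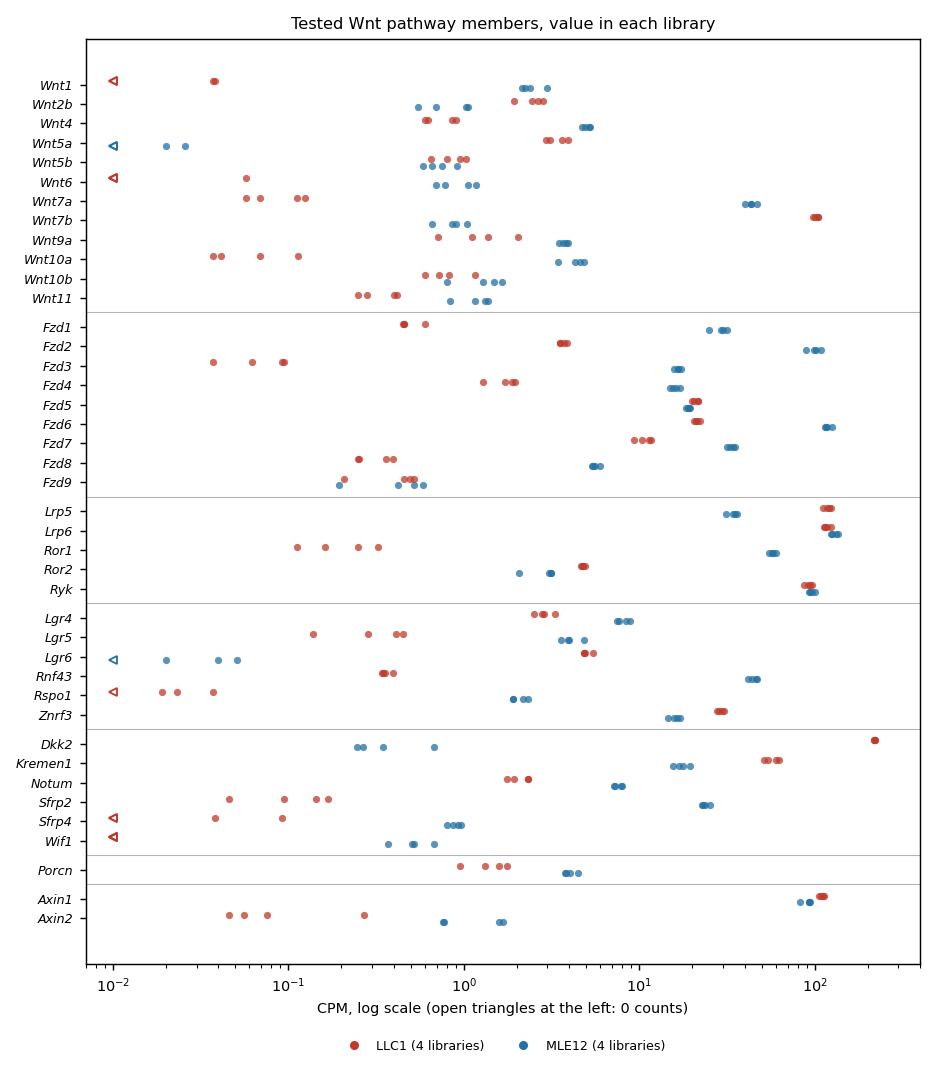
CPM on a log scale (x axis) of the 41 tested members in each of the 4 LLC1 libraries (red) and 4 MLE12 libraries (blue), with rows separated by role; open triangles stand for 1 or more libraries with 0 counts. Wnt7b and Dkk2 lie near or above 100 CPM in LLC1 and near 1 CPM or lower in MLE12, while most Frizzled genes lie well apart with MLE12 on the right and Fzd5, Fzd9, Lrp6 and Ryk lie close together.

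Frizzled genes, which encode the membrane receptors that bind Wnt, were for the most part higher in MLE12. Of 10 members 9 were tested, and 7 of these were higher in MLE12, each past the minimum fold of 2. Among all genes tested 40.9% were called higher in MLE12 and 16.9% passed the minimum fold toward MLE12. Fzd2 (ENSMUSG00000050288, chromosome 11, 102604396 to 102608058) stood at 3.72, 3.55, 3.89 and 3.52 CPM in LLC1 and 108, 99.3, 102 and 88.7 CPM in MLE12. Fzd6 (ENSMUSG00000022297, chromosome 15, 39006280 to 39038186), a receptor of hair and skin polarity, stood at 20.5, 21.4, 21.0 and 22.1 CPM in LLC1 and 116, 115, 117 and 126 CPM in MLE12. The libraries of a line lay close together and the lines apart, with log2 fold changes of -4.76 ± 0.07 for Fzd2 (edgeR adjusted p = 3.5e-21) and -2.48 ± 0.05 for Fzd6 (1.9e-19). Fzd7 (ENSMUSG00000041075), a frequent receptor of stem and tumour cells, was at 11.7, 9.32, 10.3 and 11.3 CPM in LLC1 and 35.0, 32.9, 31.4 and 34.3 CPM in MLE12 (-1.65 ± 0.07, edgeR adjusted p = 5.3e-14).

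Fzd1 and Fzd3 were below 1 CPM in every LLC1 library. Fzd1 (ENSMUSG00000044674) was at 0.601, 0.449, 0.455 and 0.457 CPM in LLC1 and 31.6, 29.3, 30.2 and 25.0 CPM in MLE12. Fzd3 (ENSMUSG00000007989), known for axon guidance and planar polarity, was at 0.0925, 0.0374, 0.0620 and 0.0951 CPM in LLC1 and 16.6, 17.3, 16.7 and 15.7 CPM in MLE12. These are log2 fold changes of -5.90 ± 0.12 (edgeR adjusted p = 2.7e-19) and -7.83 ± 0.16 (3.4e-19), the latter the largest of the family. Fzd4 (ENSMUSG00000049791), the Norrin receptor of retinal vessels, was at 1.71, 1.29, 1.96 and 1.88 CPM in LLC1 and 14.9, 15.5, 16.2 and 16.98 CPM in MLE12 (-3.22 ± 0.11, edgeR adjusted p = 1.3e-15). Fzd8 (ENSMUSG00000036904) was at 0.254, 0.393, 0.248 and 0.362 CPM in LLC1 and 5.46, 5.58, 5.37 and 5.96 CPM in MLE12 (-4.13 ± 0.17, edgeR adjusted p = 2.5e-14). In none of these 4 receptors did a library of one line reach the range of the other, as in 76.3% of all genes tested.

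Fzd5 was the exception at a substantial level. It stood at 20.4, 21.5, 20.01 and 21.6 CPM in LLC1 and 19.2, 18.4, 19.6 and 19.0 CPM in MLE12. The difference of 0.13 ± 0.06 on the log2 scale lay toward LLC1 (edgeR adjusted p = 0.0406). The call ended under 12 of 18 alternatives, and on the TPM scale the mean was 6.74 in LLC1 and 7.17 in MLE12, so neither the call nor the direction is firm. Opposite-strand Gm38058 overlaps 17.8% of its exon bases. Fzd9 was low in both lines and did not pass the test (-0.01 ± 0.37, adjusted p = 0.988), and Fzd10 was at 0 in every library. By TPM the summed Frizzled level was 25.5 to 30.3 in LLC1 and 209 to 223 in MLE12. Fzd6 made up 41.5% ± 0.996 of it in LLC1, followed by Fzd5 with 24.4% ± 0.880 and Fzd7 with 19.0% ± 1.70 (SD, n = 4). In MLE12 Fzd6 with 34.5% ± 2.05 and Fzd2 with 32.7% ± 2.08 (SD, n = 4) differed by less than their spread, and Fzd5 held 3.32% ± 0.0707. Without division by length the Fzd5 share in LLC1 was 35.1%, close to that of Fzd6 at 35.7%. In MLE12 Fzd6 then held 35.1% ± 2.01 and Fzd2 29.5% ± 1.93 (SD, n = 4), a difference larger than their spread.

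**Figure D3:**
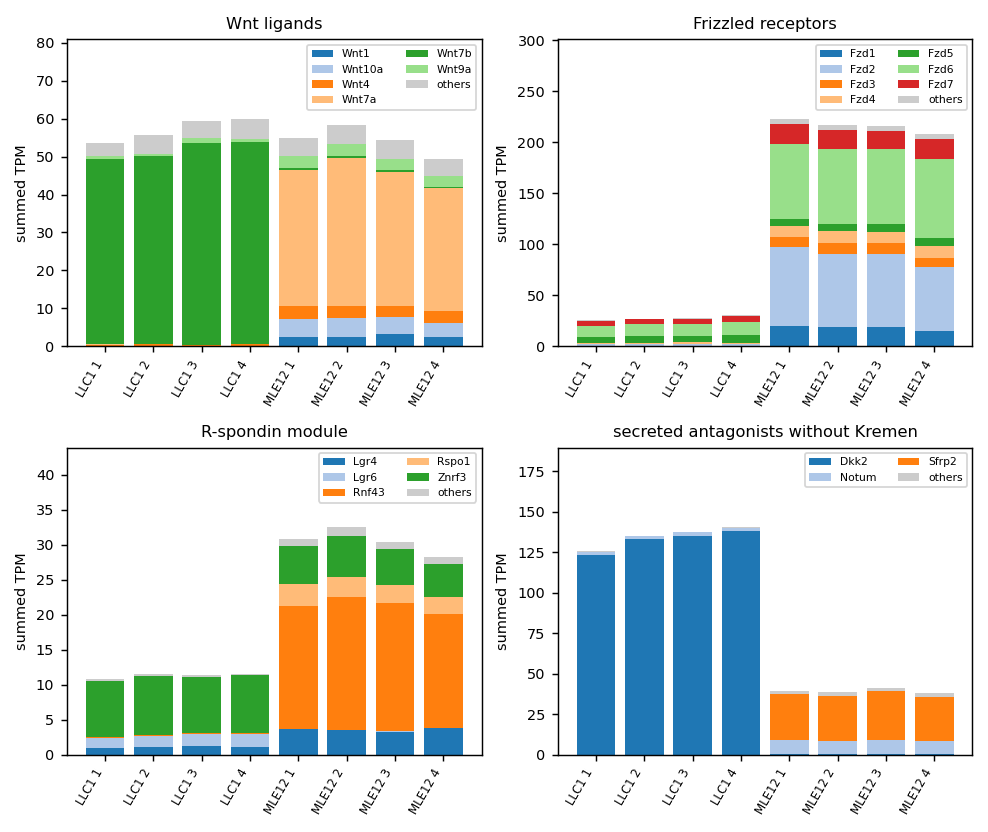
Summed level in TPM (y axis, from 0) of 4 groups of members in each of the 8 libraries (x axis), stacked by gene, with members under 4% in every library shown together in grey. The ligand sums reach 49.3 to 59.9 TPM in both lines but consist mostly of Wnt7b in LLC1 and Wnt7a in MLE12, the Frizzled sum is 209 to 223 TPM in MLE12 and 25.5 to 30.3 TPM in LLC1, and Dkk2 forms nearly all of the summed member antagonist level in LLC1.

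The co-receptors divided. Lrp5 (ENSMUSG00000024913, chromosome 19, 3584828 to 3686564), which with Lrp6 carries the signal to beta-catenin, stood at 112, 120.3, 124 and 118 CPM in LLC1 and 34.0, 35.2, 36.2 and 31.0 CPM in MLE12. No libraries overlapped, and the log2 fold change was 1.79 ± 0.05 (edgeR adjusted p = 8.9e-17). Lrp6 was abundant throughout (LLC1 117 ± 5.40 CPM, MLE12 129 ± 6.08 CPM, SD, n = 4), and its log2 fold change of -0.14 ± 0.05 was called (edgeR adjusted p = 0.00791) though the libraries overlapped. That call ended with upper-quartile scaling (adjusted p = 0.0971), when genes had to reach 1 CPM in 4 libraries (0.0728) and without LLC1 replicate 4 (0.0503). By TPM the 2 co-receptors were level in LLC1 (27.1 ± 2.29 for Lrp5 and 26.5 ± 1.48 for Lrp6), whereas in MLE12 Lrp6 (34.3 ± 2.01) stood above Lrp5 (9.13 ± 0.677).

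Ror1 (ENSMUSG00000035305, chromosome 4, 100095791 to 100444765), a receptor tyrosine kinase of Wnt5a signalling, stood at 0.162, 0.112, 0.248 and 0.323 CPM in LLC1 and 56.8, 59.95, 58.2 and 54.7 CPM in MLE12. It was the receptor with the largest difference of the tested members, at -8.06 ± 0.12 (edgeR adjusted p = 3.1e-21). Its relative Ror2 went the other way at a lower level, 4.77 ± 0.0966 CPM in LLC1 and 2.86 ± 0.534 CPM in MLE12 (0.72 ± 0.13, edgeR adjusted p = 6.5e-05). Ror1 was high in the line where Wnt5a had 3 counts. Ryk, an atypical Wnt receptor with an inactive kinase domain, did not pass the test (LLC1 92.1 ± 3.76 CPM, MLE12 95.7 ± 3.85 CPM; -0.06 ± 0.04, adjusted p = 0.263). With library totals alone it was called higher in MLE12 (-0.15 ± 0.05, adjusted p = 0.00694), and by upper-quartile scaling the difference was 0.00.

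In the R-spondin module the ubiquitin ligases that remove Frizzled from the membrane were unequal. Rnf43 (ENSMUSG00000034177, chromosome 11, 87662722 to 87735539) stood at 0.347, 0.355, 0.393 and 0.343 CPM in LLC1 and 43.8, 46.9, 46.5 and 41.4 CPM in MLE12. The lines lay 124-fold apart (log2 fold change -6.95 ± 0.10, edgeR adjusted p = 1.3e-21). Znrf3, its partner in function, was called higher in LLC1 without passing the minimum fold of 2 (29.0 ± 1.15 against 16.0 ± 1.09 CPM; 0.86 ± 0.06, edgeR adjusted p = 1.5e-10). By TPM Znrf3 made up 72.6% ± 1.42 of the module in LLC1, and Rnf43 58.3% ± 1.53 in MLE12 (SD, n = 4).

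The LGR receptors of R-spondin also differed between the lines. Lgr6 (ENSMUSG00000042793, chromosome 1, 134983301 to 135105276), a marker of skin stem cells, was at 4.83, 4.85, 4.92 and 5.44 CPM in LLC1 and 0, 0.0398, 0.0508 and 0.0200 CPM in MLE12 (7.36 ± 0.29, edgeR adjusted p = 1.1e-14). Lgr4 (ENSMUSG00000050199), the broadly expressed member, was at 2.52, 2.88, 3.33 and 2.78 CPM in LLC1 and 8.40, 7.70, 7.47 and 8.82 CPM in MLE12 (-1.49 ± 0.11, edgeR adjusted p = 2.1e-10). Lgr5, the intestinal stem cell marker and a beta-catenin target, was higher in MLE12 (4.06 ± 0.531 against 0.322 ± 0.141 CPM; -3.63 ± 0.23). None of the 3 overlapped between lines, as in 76.3% of all genes tested, with Lgr6 on one side and Lgr4 and Lgr5 on the other. Among the R-spondins themselves Rspo1 was at 2.07 ± 0.206 CPM in MLE12 and had 4 counts over LLC1 (-6.54 ± 0.36, or -7.18 with counts divided by 2). Rspo2 had 26 counts over LLC1, 14 of them in replicate 1, and 0 over MLE12, at least 11.5-fold higher in LLC1 against a floor of 3 counts over the MLE12 libraries, or at least 6.90-fold without LLC1 replicate 1. Rspo4 had 14 and 2 counts and Rspo3 0 and 6, and these 3 genes were too low to be tested.

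Among the secreted antagonists that are members, the highest differed between the lines. Dkk2 (ENSMUSG00000028031, chromosome 3, 132085292 to 132180293), which binds LRP5 and LRP6, stood at 220.2, 219, 221 and 217 CPM in LLC1 and at 0.246, 0.345, 0.266 and 0.680 CPM in MLE12. The LLC1 libraries were within a few CPM of each other, and the log2 fold change of 9.26 ± 0.12 (edgeR adjusted p = 1.4e-19) was the largest of the tested members. Kremen1 (ENSMUSG00000020393), the membrane partner of DKK proteins in removing LRP6, was also higher in LLC1, at 51.4, 54.5, 60.5 and 62.8 CPM against 16.9, 19.5, 17.8 and 15.5 CPM (1.71 ± 0.07, edgeR adjusted p = 2.4e-13). Of the other DKK genes Dkk1 was at 0 in every library, Dkk3 had 29 counts over LLC1 and 4 over MLE12, and Dkk4 had 8 and 12, while Kremen2 had 7 and 12.

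Sfrp2 (ENSMUSG00000027996, chromosome 3, 83766321 to 83774316), a secreted Frizzled-like protein that binds Wnt, stood at 0.0462, 0.168, 0.145 and 0.0951 CPM in LLC1 and 23.6, 22.9, 25.3 and 23.2 CPM in MLE12. Its log2 fold change was -7.65 ± 0.15 (edgeR adjusted p = 1.5e-19) with no overlap; the opposite-strand gene Gm26771 overlaps 16.1% of its exon bases and had 1247 counts over MLE12. Notum (ENSMUSG00000042988), the enzyme that removes the lipid from Wnt, was at 2.31, 1.93, 2.34 and 1.77 CPM in LLC1 and 7.85, 7.29, 7.98 and 7.18 CPM in MLE12 (-1.87 ± 0.12, edgeR adjusted p = 1.6e-11). Here too opposite-strand transcripts share exon bases, Notumos over 29.4%, and Notumos had 87 counts over LLC1 and 678 over MLE12. Without a stated counting strand the reads of Notum and of Notumos cannot be told apart. By TPM, summed over the member antagonists without the Kremen genes, Dkk2 was 98.3% ± 0.175 of the level in LLC1, and in MLE12 Sfrp2 was 73.1% ± 0.436 and Notum 20.8% ± 0.663 (SD, n = 4). That sum ran from 126 to 140.4 TPM in LLC1 and from 38.0 to 41.3 TPM in MLE12. It leaves out inhibitors that are no members. In LLC1 Igfbp4 at 256 ± 17.4 TPM and Apcdd1 at 308 ± 25.0 TPM stood above Dkk2 (132 TPM). In MLE12 Trabd2b at 36.6 ± 1.19 TPM and Apcdd1 at 31.3 ± 1.91 TPM stood above Sfrp2 (28.7 ± 1.21 TPM).

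Sfrp4, a relative of Sfrp2, stood at 0.888 ± 0.0703 CPM in MLE12 and had 6 counts over LLC1 (-4.77 ± 0.50, or -5.88 without LLC1 replicate 1). Wif1, an inhibitor that binds Wnt directly, stood at 0.517 ± 0.123 CPM in MLE12 and had 0 counts in every LLC1 library, at least 36.6-fold higher in MLE12 against a floor of 3 counts over the LLC1 libraries. Sfrp5 (6 counts over LLC1 and 28 over MLE12) and Sfrp1 (1 and 4) were too low to be tested. Frzb, a relative of the Sfrp genes that is listed with the other extracellular regulators, was higher in LLC1 (3.29 ± 0.117 against 0.113 ± 0.0272 CPM; 4.87 ± 0.22).

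Porcn, the enzyme that attaches the lipid to Wnt, was higher in MLE12 (4.03 ± 0.306 against 1.41 ± 0.357 CPM; -1.50 ± 0.17, edgeR adjusted p = 8.4e-08). Axin1, the scaffold of the complex that degrades beta-catenin, was abundant in both lines and slightly higher in LLC1 (109.8 ± 3.44 against 90.7 ± 5.29 CPM; 0.27 ± 0.05, edgeR adjusted p = 2.7e-05). Axin2, the scaffold that beta-catenin itself induces, was low in both lines. Its values were 0.0462, 0.0561, 0.269 and 0.0761 CPM in LLC1 and 1.67, 1.58, 0.774 and 0.760 CPM in MLE12, so that MLE12 replicates 1 and 2 were about 2-fold above replicates 3 and 4. The log2 fold change of -3.41 ± 0.45 (edgeR adjusted p = 2.0e-06) became -4.28 without LLC1 replicate 3. Opposite-strand Gm11670 overlaps 3.80% of the Axin2 exon bases and had 44 counts over MLE12.

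**Figure D4:**
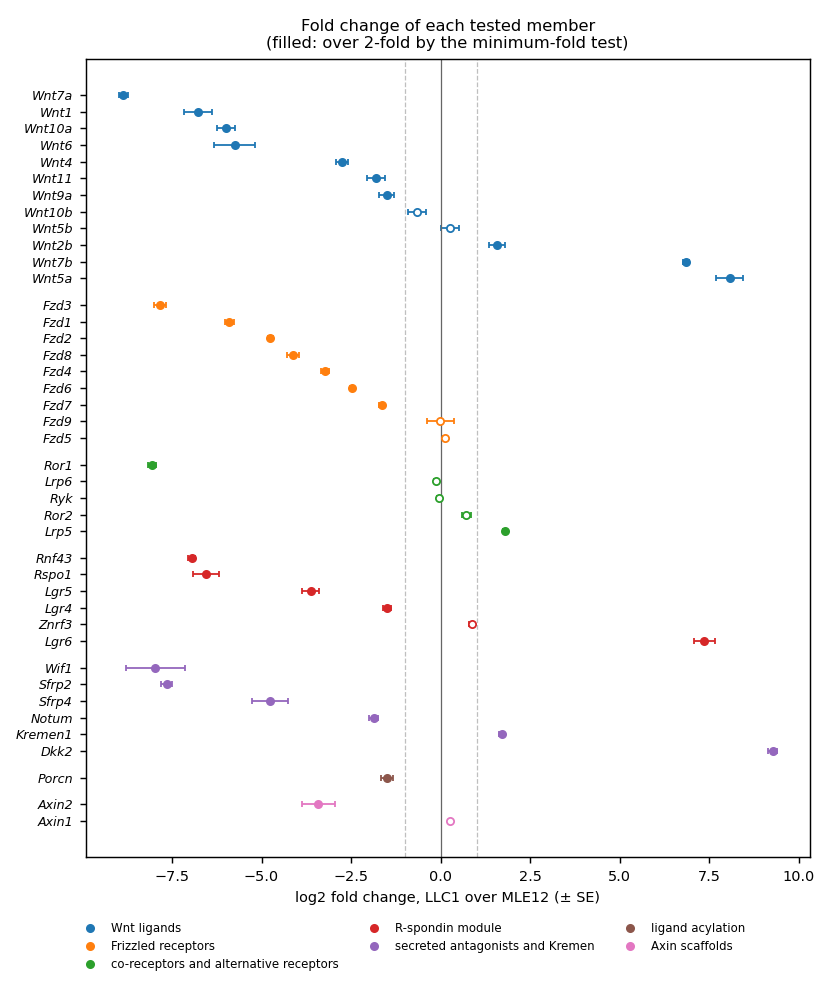
Log2 fold change, LLC1 over MLE12, with its standard error (x axis) for each of the 41 tested members, grouped by role and sorted within it; filled points passed the test against a minimum fold of 2 and dashed lines mark that fold. Of the tested members 25 filled points lie on the MLE12 side and 7 on the LLC1 side, among the latter Dkk2 at 9.26 and Wnt5a at 8.06, and the fitted point of Wif1, which had 0 counts in LLC1, depends on the fit's prior count.

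Among tested members with counts in both lines, 11 held under 1% of their higher level in the lower line. Wif1 had 0 counts in LLC1 and is not among them. The lower line held 0.175% of the higher for Dkk2, 0.209% for Wnt7a, 0.337% for Wnt5a, 0.368% for Ror1, 0.433% for Fzd3, 0.479% for Sfrp2, 0.552% for Lgr6, 0.776% for Wnt1, 0.804% for Rnf43, 0.856% for Wnt7b and 0.959% for Rspo1. The share of Wnt5a was 0.196% without MLE12 replicate 1 and that of Wnt1 0.513% without LLC1 replicate 4. For these genes the SD over the libraries of the lower line, 0.396% for Wnt5a and 0.896% for Wnt1, was larger than the share. Dkk2 and Wnt7b reached 100 CPM in their higher line, and among 2200 genes of at least 100 CPM in LLC1 the lowest share in MLE12 was 0.160%, and 34 of them were under 1%. Of 2341 genes of that level in MLE12 the lowest share in LLC1 was 0.325%, and 41 were under 1%. Whether these counts are reads of the other line was not tested.

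Other genes of the pathway were grouped by place of action. Of 19 other extracellular regulators 14 were tested and each was called (beside 81.6% over all genes tested), 7 higher in each line. The minimum fold of 2 was passed by 12 (85.7%, beside 33.7% over all genes tested). Over the 14 genes the median log2 fold change was -0.03 and the median size 5.02. Toward LLC1 the largest at 10 CPM or more were the glypican Gpc6 (12.1 ± 1.22 against 0.114 ± 0.0531 CPM; 6.75 ± 0.19) and Igfbp4, an IGF-binding protein also described as a Wnt inhibitor (508 ± 18.9 against 6.99 ± 0.395 CPM; 6.19 ± 0.06). Toward MLE12 they were Trabd2b, a protease that inactivates Wnt (0.221 ± 0.0800 against 93.0 ± 1.94 CPM; -8.69 ± 0.10), and the glypican Gpc4 (0.297 ± 0.116 against 53.0 ± 1.53 CPM; -7.44 ± 0.11). Wls, the carrier that brings Wnt to the membrane, was abundant in both lines and higher in MLE12 (136 ± 3.59 against 208 ± 5.47 CPM; -0.62 ± 0.04).

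Of 23 genes of the cytoplasmic relay and destruction complex 22 were tested and all were called (beside 81.6% over all genes tested). They split into 6 higher in LLC1 and 16 higher in MLE12. Only 7 passed the minimum fold of 2 (31.8%, close to the 33.7% of all genes tested). The median log2 fold change of the 22 genes was -0.46. Ctnnb1, which encodes beta-catenin, had 449 ± 12.9 CPM for LLC1 and 702 ± 14.6 CPM for MLE12 (-0.64 ± 0.04). Counting genes whose higher line reached 10 CPM, Apc2 (3.03 ± 0.09) was the largest toward LLC1, followed by Csnk1a1 (0.53 ± 0.04) and Csnk1g1 (0.53 ± 0.05), which were level. Toward MLE12 they were Dact1 (-4.23 ± 0.14) and Apc (-1.35 ± 0.05), and at a lower level Nkd2 also passed the minimum fold (-1.85 ± 0.32, at 0.255 against 0.920 CPM). Of the 14 TCF/LEF factors and nuclear partners 3 were higher in MLE12, 7 higher in LLC1 and 4 without a call (71.4% called). Their median was 0.12, and 2 passed the minimum fold (14.3%). These were Pygo1, a partner of beta-catenin in the nucleus (0.0267 ± 0.0335 CPM in LLC1 against 5.37 ± 0.134 CPM; -7.61 ± 0.31), and Tle1, a co-repressor (1.21 ± 0.05). Tcf7l1 (LLC1 28.8 CPM, MLE12 27.2 CPM) and Tcf7 (3.54 and 3.52 CPM) did not pass the test, while Tcf7l2 (0.59 ± 0.07) and Lef1 (1.08 ± 0.29) were higher in LLC1. Planar polarity genes fell into 6 higher in MLE12, 5 higher in LLC1 and 1 without a call, of 12 tested out of 14, with a median of -0.49. Celsr2 (-7.35 ± 0.14) and Daam2 (-4.07 ± 0.08) were the largest toward MLE12 and Daam1 (1.47 ± 0.05) and Invs (1.14 ± 0.07) toward LLC1.

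Listed beta-catenin target genes did not move as one group. Of 23 listed 17 were tested, with 8 higher in MLE12, 7 higher in LLC1 and 2 without a call. That is 88.2% called, beside 81.6% over all genes tested. The minimum fold of 2 was passed by 13 (76.5%, beside 33.7% over all genes tested), and the median of the tested targets was -0.07. Of the listed members Axin2, Lgr5, Notum and Rnf43 were on the MLE12 side and Znrf3 on the LLC1 side. On the MLE12 side were also the transcription factor Sp5, at 0.918, 0.835, 0.736 and 0.600 CPM in MLE12 with a single count over LLC1, and Tnfrsf19, at 6.62, 6.43, 6.76 and 5.24 CPM in MLE12 and 0.175 ± 0.0601 CPM in LLC1. Neither showed the 2-fold step among MLE12 libraries that Axin2 did. The other listed targets higher in MLE12 were Zbtb7c (-7.93 ± 0.15), a zinc finger gene, and the ephrin receptor gene Ephb3 (-2.75 ± 0.07). On the LLC1 side stood Apcdd1, a membrane inhibitor of Wnt (386 ± 19.2 against 33.7 ± 1.79 CPM; 3.52 ± 0.05), Myc (3.02 ± 0.04), the homeobox gene Cdx2 (2.52 ± 0.16), the adhesion receptor gene Cd44 (2.35 ± 0.05), Sox9 (1.80 ± 0.07) and Lef1 (1.08 ± 0.29). Inhibitors of the pathway were thus found on both sides. The cyclin gene Ccnd1, with 603 CPM for LLC1 and 633 CPM for MLE12, did not pass the test (adjusted p = 0.116), nor did Tcf7, and Nkd1, Ascl2, Dkk1, Ephb2, T and Cdx1 had too few counts to be tested.

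**Figure D5:**
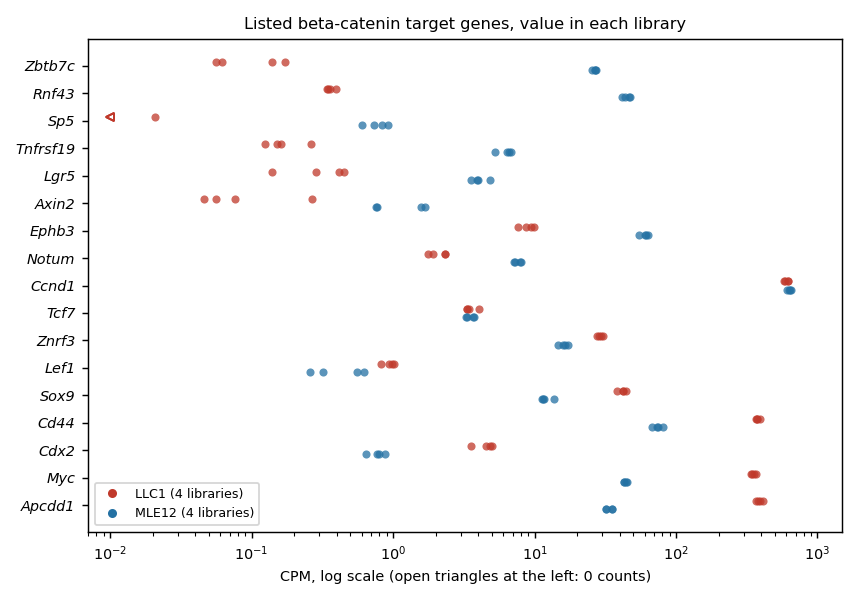
CPM on a log scale (x axis) of the 17 tested genes from the list of beta-catenin targets in each of the 4 LLC1 libraries (red) and 4 MLE12 libraries (blue), ordered from higher in MLE12 (top) to higher in LLC1 (bottom); open triangles stand for 1 or more libraries with 0 counts. Rnf43, Sp5, Lgr5 and Axin2 lie on the MLE12 side and Myc, Cd44 and Apcdd1 on the LLC1 side, and the MLE12 values of Axin2 form a pair at 1.67 and 1.58 CPM and a pair at 0.774 and 0.760 CPM.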

How the data were processed

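Poly-A RNA of 4 LLC1 and 4 MLE12 libraries was sequenced as paired reads, per the labels' protocols. The authors deposited raw counts per gene; the submitters' processing notes name CASAVA, TopHat2, featureCounts, edgeR and mm10 without stating which step each served. Versions, strand setting and annotation release are not given in the sources used here. The length deposited with each gene (other unit, bases, per the file headers) was used for TPM. Counts were fitted with edgeR 4.0.16 in R 4.3.3 (filterByExpr, TMM, robust glmQLFit, glmQLFTest, and glmTreat against 2-fold), with p-values adjusted over all genes tested. The method was tested on simulated data in which most genes were unchanged. In the measured data 81.6% of genes tested were called, so the simulation does not cover scaling under so wide a difference. CPM values use TMM-scaled library sizes. The SE is the log2 fold change divided by the square root of F. Members and lists were chosen with earlier results of these data known. Values are given in every library for members that reached 5 CPM or more in either line's mean with a log2 fold change of at least 1 in size; from other lists up to 2 called genes per direction of at least 10 CPM are named, plus genes fixed by name, and Sp5, Tnfrsf19, Ephb3, Sox9, Cd44, Cdx2, Pygo1, Csnk1g1, Nkd2 and Frzb were added after their values were seen. Alternatives were DESeq2 1.42.0, limma-voom (limma 3.58.1), other scalings and filters, removal of the 20 most abundant genes, counts divided by 2, each library left out and a replicate block. Exon overlaps come from GENCODE M21. Intervals cover counting error only, since PCR reads carried no molecular identifiers and mates may be counted separately.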

Additional observations from a re-analysis of the deposited data

Results flagged for a closer look

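Sets of 4 libraries numbered 82 (41 tested members in 2 lines), but Wif1 in LLC1, at 0 in every library, could not be checked. In 6 sets the highest or lowest library stood far from the other 3 by Dixon's criterion. Chance alone meets it in about 1 of 20 sets of normally distributed values. That rate does not apply to very low counts such as those of Wnt6 in LLC1. Axin2 in LLC1 was at 0.269 CPM in replicate 3 and at most 0.0761 CPM in the others. Ror2 in MLE12 was at 2.06 CPM in replicate 4 and at least 3.08 CPM in the others, and Axin1 was at 82.8 CPM in the same library and at least 92.6 CPM in the others. Fzd1 in LLC1 was at 0.601 CPM in replicate 1 and at most 0.457 CPM in the others. Lgr6 in LLC1 was at 5.44 CPM in replicate 4 and at most 4.92 CPM in the others. Wnt6 in LLC1 was at 0.0571 CPM in replicate 4, which is 3 counts, and at 0 in the others.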

How the results depend on the processing

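Of the 41 tested members 36 kept direction and call under each of the 18 alternatives in which they could be fitted, and the exceptions were Wnt10b, Fzd5, Fzd9, Lrp6 and Ryk. Fzd9, not called in any fit, changed sign to 0.06 with limma-voom, 0.05 with upper-quartile factors, 0.00 with counts divided by 2, 0.22 without LLC1 replicate 1, and 0.18 and 0.08 without MLE12 replicates 3 and 4, with a range of -0.27 to 0.22 over left-out libraries; Ryk went to 0.00 with upper-quartile factors. Without the filter 11 members in place of 7 passed the minimum fold of 2 toward LLC1, the additions being Wnt3, Wnt8b, Rspo2 and Dkk3, which have too few counts for the filter. Leaving out 1 library gave 10 to 12 members higher in LLC1 and 25 to 27 higher in MLE12. Members higher in LLC1 numbered 16 with DESeq2 and 16 without the filter, and members higher in MLE12 21 with at least 1 CPM in 4 libraries, where fewer genes are tested. With the replicate number as a block 10 and 27 members were called, and Fzd5 lost its call (adjusted p = 0.0810). The labels do not say whether same-numbered libraries shared a batch. Their correlations of deviations were -0.00676, 0.108, 0.0801 and -0.0646, and 4 of 8 libraries correlated best with their own number. The fitted value of Wif1, at 0 in LLC1, ranged from -8.04 to -5.66. The counting depth limits the members under about 1 CPM. In checks chosen after seeing the data, leaving out 1 library moved the lower-line share by over 1.5 times in 2 of 11 members and the lower bound of the fold in 2 of 3; that of Rspo3, which had 6 counts, was 0.698 without MLE12 replicate 3, so no bound above equal levels was left.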
